A study of Mus musculus with 12 samples.

Results

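Epithelium grown from the mouse duodenum and kept with the solvent dimethyl sulfoxide (DMSO) alone was described from 3 RNA-seq libraries, replicates 1, 2 and 3, out of 12 in the series. They were chosen by their group label, DMSO. The organoids were wild type, the source tissue is labelled duodenum, and they were grown in IntestiCult medium. The other 9 libraries, from organoids given CA, CDCA or DCA, were not used here. The labels disagree on the time with solvent: the sample fields give 2 days, whereas the protocol gives 2 days of culture followed by 96 hours with the bile acids. The DMSO concentration is not given in the sources used here. Nothing in the labels tells whether the 3 libraries stem from different animals or cultures, and the spread between them may be technical. With 1 group there is no comparison between groups, and every result is a level with its spread.

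Intestinal organoids are closed epithelial cysts grown from crypts. Stem cells at the crypt base, kept in division by Wnt and Notch signals and by R-spondin supplied in the medium, give rise to absorptive enterocytes and to secretory cells: mucus-making goblet cells, Paneth cells that release antimicrobial peptides, hormone-making enteroendocrine cells and chemosensory tuft cells. In the animal, the duodenum is the site of iron and calcium uptake and of cholecystokinin release, and bile acids are taken back mainly in the ileum, at the other end of the small intestine.

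Values are in TPM (transcripts per 1000000 transcripts quantified), which are corrected for transcript length, so levels can be compared between genes within a library. Values of a gene are given in the order replicate 1, replicate 2, replicate 3 throughout, and means carry the standard deviation (SD) over these 3 libraries (n = 3). The 32587 rows of each table summed to 903651, 889156 and 920464 TPM, short of 1000000 TPM by 7.95% to 11.1%, and shares below are of the sum of the rows. TPM keeps no read depth, so the counting error of a single value is unknown. A gene was called present at 1 TPM or more in each of the 3 libraries, which held for 11207 of the 32587 rows (34.4%). Outside ribosomal and mitochondrial genes, 10706 of 20928 protein-coding rows were present, against 110 of 5048 pseudogene rows. The 34.4% is therefore a low mark for lists of protein-coding genes. Another 15382 rows were listed at 0 in every library. A 0 can be a failed estimate: 6 rows of mean 10 TPM or more had a 0 in at least 1 library, among them Rps13-ps1 at 0, 0 and 159.8 TPM and Rps13-ps2 at 0, 125 and 0 TPM.

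After the broad class of other protein-coding messages, cytosolic ribosomal protein messages and mitochondrial messages were the largest classes in each library. The 13 mitochondrially encoded protein genes held 17, 20.1 and 14.6% of the total (17.2 ± 2.74%, SD, n = 3). COX1, a core subunit of the last respiratory complex, was the highest row at 49735, 58448 and 39795 TPM. It was followed among the 13 by CYTB of the third complex at 21446, 24132 and 17682 TPM and by ND1 of the first complex at 15479.9, 18511 and 14582 TPM. Replicate 2 was highest and replicate 3 lowest for all 3 of these genes. ATP8, ND4L, ND4, ND2 and ND5 were also among the 30 highest rows. COX3 ran differently, at 2713, 3394 and 4457 TPM, with replicate 3 highest, and COX2 was lowest in replicate 1 at 672, 1920.5 and 1699.5 TPM.

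The second highest row, Gm10925, is a nuclear copy of a mitochondrial gene on chromosome 1. Its transcript matched ATP6, a subunit of the mitochondrial ATP synthase, without a mismatch over its 678 bases (ATP6 has 681), so reads of the pair cannot be told apart by sequence. Gm10925 stood at 23232, 26479.9 and 19949.8 TPM and ATP6 at 5619.95, 6584 and 7378 TPM. A second copy on chromosome 1, Gm10222, matched ND4L over all of its 294 bases and stood at 3304, 4235 and 452 TPM, against 13522, 16573 and 14008 TPM for ND4L. Gm10222 was low in replicate 3, where ND4L was not. Together the 2 copies held 2.94, 3.45 and 2.22% of the total, and the first 90 bases of the first pair (GENCODE M21 transcripts, GRCm38) are the same letter for letter.
ATP6: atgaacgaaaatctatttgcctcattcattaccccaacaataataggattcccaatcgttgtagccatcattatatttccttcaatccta
Gm10925: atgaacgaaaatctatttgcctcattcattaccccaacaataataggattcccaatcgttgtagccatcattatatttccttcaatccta
With both copies counted, mitochondrial sequence came to 19.9, 23.5 and 16.8% of the 3 libraries.

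Cytosolic ribosomal protein genes were taken by name, as protein-coding rows starting with Rpl or Rps and a digit, with Rpsa and the Rplp rows. The rule sets no ending, so it takes in Rpl34-ps1 and can take in genes that encode no ribosomal protein. The 101 rows, of which 94 were present, held 20.2, 19.6 and 20.6% of the total. Their share differed less between libraries than the mitochondrial share, with an SD of 0.487 against 2.74 percentage points. Rps27rt (5032 ± 335 TPM), Rplp1 (4963 ± 136 TPM), Rpl13a (4672 ± 157 TPM), Rps24 (4571 ± 415 TPM) and Rps12 (4560.1 ± 171 TPM) were the highest of them (mean ± SD, n = 3), and Rpl32, Rps18, Rpl23a, Rps14, Rps6, Rpl26 and Rps15 were also among the 30 highest rows. Of the 100 highest rows by mean, 55 were of this class, 11 were mitochondrially encoded and 21 were other protein-coding genes. Among the 100 were also 6 pseudogene or predicted-gene rows that matched a ribosomal protein gene at 100% identity over most of their length, and each of the 6 stood above the gene it matches. Gm10275 had a mean of 3791 TPM against 159 TPM for Rpl12, and Gm15500 had 3011 TPM against 69 TPM for Rpl5. Rpl23a and the predicted gene Gm46442 had the same values, 4188, 3829 and 4556 TPM. The level of a single ribosomal protein gene is therefore uncertain where such a copy exists, and 116 rows of mean 1 TPM or more, in 57 sets, carried exactly the same 3 values as another row.

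Ribosomal RNA remained after poly(A) selection and, of the classes with a mean share above 1%, had the largest ratio between its highest and lowest library. In percentage points its SD, 0.968, was smaller than the 2.74 of the mitochondrial class. It held 2.85, 1.45 and 0.994% of the 3 libraries. The 18S rows Rn18s and Rn18s-rs5 had the same values, 12617, 5798 and 4533 TPM each, highest in replicate 1 by 2.78-fold over replicate 3. Protein-coding genes outside the ribosomal and mitochondrial classes held 52.1, 50.6 and 56.6%, and long non-coding RNA 0.809, 0.886 and 0.949%.

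**Figure D1:**
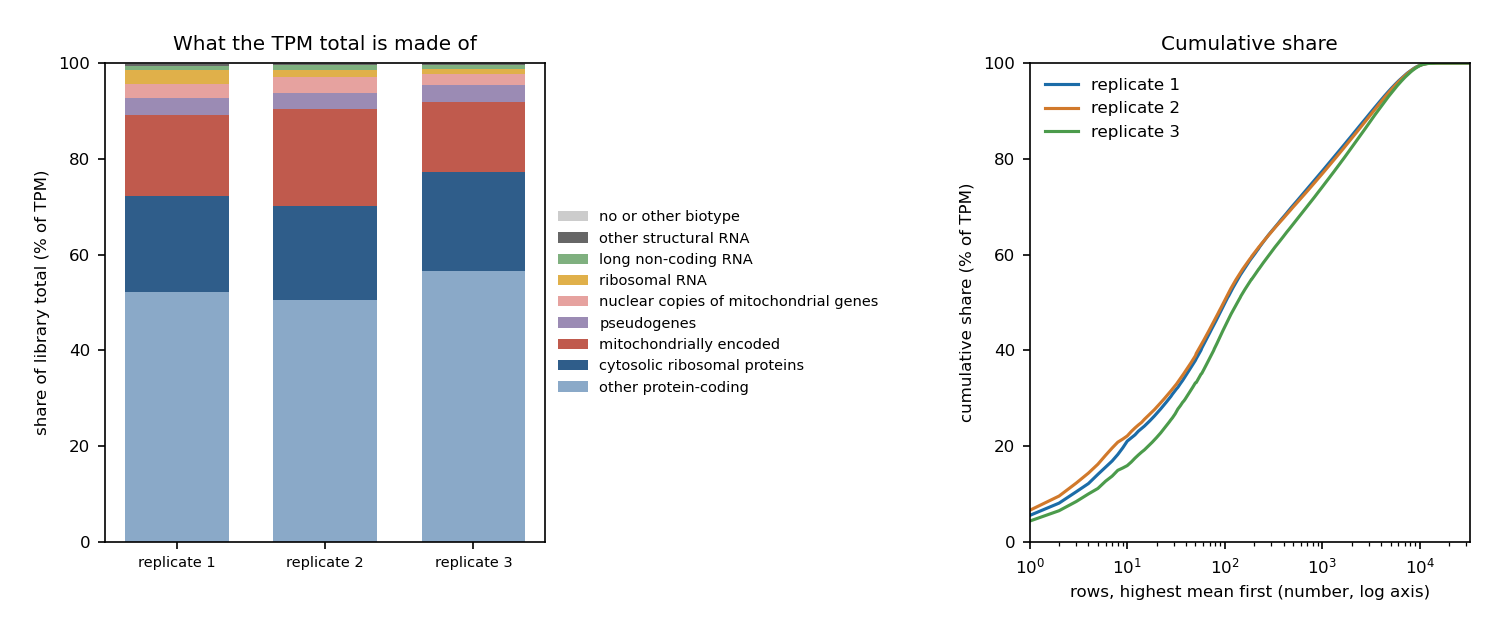
Left, share of each DMSO library's TPM total held by classes of rows (percent, bars stacked from 0 to 100); right, cumulative share (percent) over rows ordered by mean TPM, on a log axis. Replicate 2 has the largest mitochondrial share (20.1%) and replicate 3 the smallest (14.6%), and the curve of replicate 3 lies below the others, with 45.0% of its total in the 100 highest rows.

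The 10 rows of highest mean held 21, 22.1 and 15.9% of the total, the 100 highest 49.8, 50.4 and 45% and the 500 highest 70.2, 69.9 and 66.3%. From its own highest row down, 101, 98 and 134 rows covered 50% of each library, and 3196, 3336 and 3683 rows covered 90% of it. Replicate 3 was the least concentrated of the 3 at each of these points.

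Outside these classes the highest message was Eef1a1, which carries aminoacyl-tRNA to the ribosome, at 12299, 10843 and 11171 TPM. Sprr2a2, a small proline-rich protein of epithelia, came next at 6962, 5537 and 6125 TPM. Its near-identical neighbours Sprr2a3 (212, 145 and 173 TPM) and Sprr2a1 (57.7, 44.3 and 39.4 TPM) may share its reads, and the 3 rows summed to 7232, 5726 and 6338 TPM. The glycolytic enzyme Gapdh stood at 4126, 3398 and 3527 TPM and the Paneth cell peptide Defa24 at 3114, 2851 and 4732 TPM. The zinc-binding metallothioneins Mt1 (3751, 3411 and 3053 TPM) and Mt2 (3216, 3217 and 2874 TPM) followed, both lowest in replicate 3. Products of single intestinal cell types stood among the 30 highest messages of this class: Defa3 of Paneth cells, Tff3 and Spink4 of goblet cells and Cck of enteroendocrine cells.

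The marker lists of the 6 main crypt and villus cell types were nearly complete in these libraries. Of their genes, all 21 stem cell markers, all 20 markers of dividing cells, 30 of 31 enterocyte, 16 of 18 goblet, 19 of 20 Paneth and 27 of 28 enteroendocrine markers were present, against 34.4% of all rows. By contrast, 8 of 18 tuft markers, 1 of 13 mesenchymal, 2 of 13 immune and 0 of 6 erythroid markers were present. In bulk RNA, more cells of a type and more RNA per cell cannot be told apart, so a list's level is not a count of cells.

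**Figure D2:**
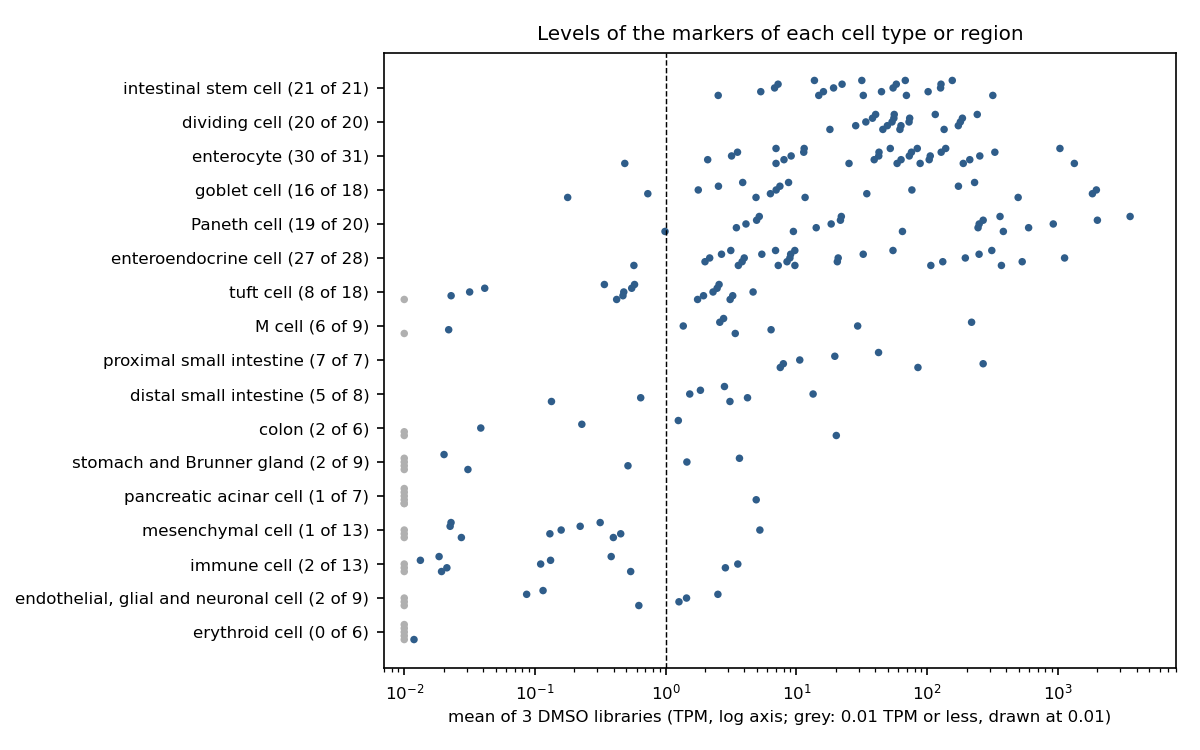
Mean TPM over the 3 DMSO libraries (log axis) of every marker of each cell type or region, 1 point per gene, with the number of markers at 1 TPM or more in each library beside the list's name and the 1 TPM level dashed. All stem and dividing cell markers lie right of the line, and most markers of connective tissue, immune, pancreatic and erythroid cells lie left of it or at the floor of 0.01 TPM.

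Among stem cell markers, Olfm4, a secreted glycoprotein of the crypt base, was highest at 161, 346 and 446 TPM. Replicate 1 was low and replicate 3 was 2.77-fold above it. Smoc2 (117, 152 and 197 TPM) and Hopx (107, 126 and 149.7 TPM) followed, with Prom1 at 102, 87.1 and 116 TPM. Lgr5, the R-spondin receptor that marks the cycling stem cell, stood at 52.3, 67.6 and 84.1 TPM. Its transcription factor partner in the crypt base, Ascl2, stood at 3.39, 8.7 and 9.6 TPM and the Wnt feedback gene Axin2 at 18, 31.6 and 47.8 TPM. For each of these genes other than Prom1, replicate 1 was lowest and replicate 3 highest, but after median-ratio scaling Ascl2 was highest in replicate 2.

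Division genes were present throughout. Pcna, the sliding clamp of DNA replication, stood at 211, 232 and 282 TPM, the mitotic ubiquitin-conjugating enzyme Ube2c at 167, 189.8 and 201 TPM, the mitotic kinase Cdk1 at 152, 187 and 199 TPM and the proliferation marker Mki67 at 23.9, 26.7 and 34.6 TPM. The summed level of the 20 genes was 1462, 1710.3 and 1988 TPM, again lowest in replicate 1, as it was after median-ratio scaling. The spread was small for single members: none of the 20 had a library more than 2-fold above another.

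Enterocyte markers ranged over several orders of magnitude. Fabp1, which binds fatty acids and bile acids inside the cell, stood at 1112, 667 and 1329 TPM. The brush border peptidase Anpep stood at 386, 282 and 319.8 TPM, the microvillus protein Vil1 at 229.9, 189.99 and 215 TPM and the disaccharidase Sis at 371, 171 and 216 TPM. In TPM as deposited replicate 2 was lowest for each of these 4 genes, but after median-ratio scaling (each library divided by its median ratio to the others) replicate 3 was lowest for Anpep and Vil1. The alkaline phosphatase Alpi stood at 48, 31 and 48.8 TPM and the apolipoproteins Apoa1, Apoa4 and Apob at 154, 80.1 and 76.9 TPM, 150.4, 76.1 and 90.1 TPM and 99.9, 67.6 and 84.5 TPM.

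Some genes of mature enterocytes were low. Lactase, Lct, stood at 5.72, 1.7 and 2.15 TPM, the peptide carrier Slc15a1 at 3.17, 1.69 and 1.42 TPM and the villus tip ectonucleotidase Nt5e at 0.636, 0.482 and 0.341 TPM. Of these, Lct and Slc15a1 were highest in replicate 1 by 3.37-fold and 2.22-fold over the lowest library, at levels where the counting error is not known.

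Of goblet cell markers, the trefoil peptide Tff3 (1932, 1644 and 2328 TPM) and the protease inhibitor Spink4 (1889.6, 1562 and 2055 TPM) were far above the main gel-forming mucin Muc2 at 34.9, 29.5 and 39.1 TPM. The mucus proteins Fcgbp (512, 464 and 513 TPM) and Zg16 (86.9, 91 and 51.2 TPM), the mucin-folding enzyme Agr2 (250.03, 226 and 215 TPM) and the peptide guanylin, Guca2a (188, 143 and 189 TPM), lay between. Spdef (8.21, 7.58 and 10.3 TPM) and Atoh1 (4.24, 3.6 and 3.79 TPM), transcription factors of the secretory lineage, were present at low levels. Gfi1 (0.599, 0.691 and 0.898 TPM) and Retnlb (0.127, 0.252 and 0.154 TPM) were under 1 TPM.

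Paneth cell markers gave the highest summed level of any cell type, 7346, 6844 and 12095 TPM, and replicate 3 stood 1.77-fold above replicate 2, or 1.52-fold after median-ratio scaling. Alpha-defensins, the peptides these cells release against bacteria, included its highest members. Over the whole family, with rows outside the marker list counted, 22 of 28 rows named Defa and a number were present, against 34.4% of all rows. Their sum was 6221, 5874 and 10349.6 TPM. Defa24 led at 3114, 2851 and 4732 TPM, followed by Defa3 at 1658, 1601 and 2752 TPM, Defa17 at 609, 760.5 and 1394 TPM, Defa30 at 299.8, 254 and 528 TPM and Defa23 at 194, 159 and 382 TPM. For all 5, replicate 3 was highest. The lysozyme Lyz1 (337, 282 and 528 TPM), the lectin Itln1 (555, 434 and 802 TPM, a row with the same values as Itlnb), the angiogenin Ang4 (210.01, 159.96 and 379 TPM) and the defensin-activating protease Mmp7 (51, 45.4 and 97.6 TPM) were also highest in replicate 3.

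The split among defensin rows is uncertain, because their coding sequences are nearly the same. The coding sequences of Defa3 and Defa17, 282 bases each, were identical, and Defa30 differed from Defa24 at 4 positions. Defa24, Defa3 and Defa23 are shown (GENCODE M21, GRCm38, chromosome 8), with the 15 positions at which these 5 genes differ in capitals.
Defa24: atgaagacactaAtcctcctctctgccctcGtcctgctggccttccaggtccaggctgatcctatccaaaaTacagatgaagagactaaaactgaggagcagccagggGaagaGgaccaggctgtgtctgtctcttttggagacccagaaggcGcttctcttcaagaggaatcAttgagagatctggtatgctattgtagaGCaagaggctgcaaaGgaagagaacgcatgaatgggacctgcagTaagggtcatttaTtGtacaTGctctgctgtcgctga
Defa3: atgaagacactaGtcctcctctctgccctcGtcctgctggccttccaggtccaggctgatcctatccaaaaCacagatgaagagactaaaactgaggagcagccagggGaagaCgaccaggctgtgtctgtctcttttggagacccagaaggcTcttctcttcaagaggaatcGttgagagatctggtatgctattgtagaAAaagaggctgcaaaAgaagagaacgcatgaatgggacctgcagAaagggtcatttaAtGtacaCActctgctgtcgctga
Defa23: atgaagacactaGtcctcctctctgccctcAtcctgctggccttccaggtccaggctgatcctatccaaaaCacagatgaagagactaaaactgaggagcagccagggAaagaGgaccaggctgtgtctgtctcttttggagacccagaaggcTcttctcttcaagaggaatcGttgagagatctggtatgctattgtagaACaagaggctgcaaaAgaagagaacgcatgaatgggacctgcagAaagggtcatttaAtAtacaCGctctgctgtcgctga
Defa24 and Defa3 differed at 12 of these positions and Defa3 and Defa23 at 6. Within the coding sequence, a read must therefore cover one of a few bases to be told apart. The untranslated ends of the transcripts were not compared.

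Of the hormone genes in the enteroendocrine list, Cck, Gip, Gcg, Sst and Ghrl stood high, whereas Sct, Nts and Pyy were low. Cck, cholecystokinin, which triggers gallbladder emptying, was highest at 1167, 924 and 1282 TPM. The incretin Gip stood at 369, 312 and 428 TPM, Gcg, the precursor of the glucagon-like peptides, at 343, 276 and 317 TPM, somatostatin, Sst, at 273, 214 and 261 TPM and ghrelin, Ghrl, at 197, 192 and 198 TPM. Ghrl was nearly level across libraries, with a ratio of 1.03 between the highest and the lowest. The granins Chgb (504, 509.9 and 584 TPM) and Chga (128, 126 and 140.2 TPM), proteins of hormone granules, and Tac1 (99.3, 93.3 and 127 TPM), the precursor of substance P, were high. Pyy, a hormone of the lower gut, stood at 3.0, 1.55 and 1.96 TPM, Nts at 8.84, 5.64 and 7.3 TPM and Sct, secretin, at 7.46, 8.39 and 11.2 TPM. Neurog3, which starts endocrine differentiation, was present at 8.04, 10.7 and 10.4 TPM and Pax4 was under 1 TPM at 0.696, 0.412 and 0.604 TPM.

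Tuft cell genes were low. Avil (3.14, 4.96 and 5.88 TPM), the taste channel Trpm5 (2.63, 3.59 and 3.55 TPM), the lineage factor Pou2f3 (1.65, 3.12 and 2.91 TPM) and the kinase Dclk1 (1.64, 1.79 and 1.83 TPM) were present, and the summed level of the 18 genes was 22.4, 27.2 and 25.4 TPM. Il25, the cytokine of tuft cells, was listed at 0, 0.0685 and 0 TPM. Of the M cell list 6 of 9 genes were present, against 34.4% of all rows. Its defining genes Gp2 (0, 0.0656 and 0 TPM) and Sox8 (0 in each library) were the 2 under 1 TPM in each library. Most of the M cell list's sum came from Pglyrp1 at 205, 201 and 249.6 TPM, which is not restricted to that cell type.

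All 7 markers of the proximal small intestine, which includes the labelled tissue, were present, against 34.4% of all rows. Among them were the iron importer Slc11a2 (380.3, 194 and 229.5 TPM) and the ferric reductase Cybrd1 (49.3, 29.6 and 48.5 TPM). The transcription factors Gata4 and Pdx1 stood at 76.8, 78.3 and 99.8 TPM and at 9.99, 10.6 and 11.2 TPM. Of distal markers 5 of 8 were present, against 34.4% of all rows and 10706 of 20928 protein-coding rows outside the ribosomal and mitochondrial classes. The highest was Amn at 16.8, 12.6 and 10.8 TPM, but the genes of ileal bile acid handling were low. Slc10a2, the ileal bile acid importer, stood at 0.694, 0.415 and 0.822 TPM, its cytosolic partner Fabp6 at 1.3, 2.31 and 0.971 TPM and the hormone Fgf15 at 1.88, 1.93 and 1.72 TPM. Of colon markers, Slc26a3 stood at 25.8, 15.3 and 19.4 TPM, whereas Car1 and Hoxb13 were listed at 0 in each library. None of 39 Hox genes was present, against 34.4% of all rows. The highest, Hoxa9, stood at 0.703, 1.12 and 0.31 TPM and the next, Hoxa10, at 0.0882, 0.64 and 0.917 TPM.

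Markers of cells outside the epithelium were at or near 0. The leukocyte gene Ptprc stood at 0, 0.0636 and 0 TPM, the fibroblast genes Col1a1 at 0.894, 0.0514 and 0 TPM and Col1a2 at 0.176, 0.214 and 0 TPM, and the endothelial genes Cdh5 and Kdr at 0 in each library. Of the endothelial, glial and neuronal list, 2 of 9 were present, against 34.4% of all rows, the highest being Lyve1 at 3.17, 2.17 and 2.19 TPM. Vim (4.84, 4.9 and 6.01 TPM), Cd14 (2.7, 3.76 and 4.22 TPM) and Cd68 (2.14, 2.4 and 4.04 TPM) were the only mesenchymal or immune markers present. Of pancreatic acinar genes, Ctrb1 stood at 6.17, 2.37 and 6.23 TPM and the other 6 were listed at 0 in each library. Stomach genes reached 4.58, 2.68 and 3.73 TPM for Tff2, and Gkn1, Gkn2 and Sox2 were listed at 0 in each library.

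Genes of epithelial structure were among the higher messages. The simple keratins Krt8 (956, 869 and 970.3 TPM), Krt19 (909, 738 and 826 TPM) and Krt18 (485, 531 and 631 TPM) stood beside Epcam (734, 694 and 828 TPM), and Cldn7 was the highest claudin at 558, 537 and 575 TPM. The skin keratins Krt5 and Krt14 were under 1 TPM. Of 26 intestinal transcription factors, 24 were present, against 34.4% of all rows, led by Hnf4a (249.9, 287 and 357 TPM), Elf3 (136, 145 and 163 TPM) and Cdx2 (110.1, 123 and 138 TPM). Isx (0.0338, 0.0674 and 0 TPM), which responds to retinoids, and Prdm1 (0.61, 0.346 and 0.349 TPM), a factor of the suckling gut, were under 1 TPM. Genes of the fetal-like state were mostly low apart from Areg, with Ly6a at 28.7, 43.8 and 58.3 TPM and Clu at 6.53, 11.8 and 13.8 TPM.

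Reg genes encode secreted lectins. Reg4 (195, 166 and 270.4 TPM), Reg3g (198, 155 and 221 TPM) and Reg3b (204, 125 and 199.8 TPM) were the highest by mean and Reg2 was listed at 0 in each library. Reg1 was highest in replicate 1 at 178, 73.6 and 96.4 TPM, a ratio of 2.41, and Reg3a in the same library at 18.9, 7.06 and 11.4 TPM, a ratio of 2.68.

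Nuclear receptors, transcription factors switched by lipids, hormones and vitamins, were present for 34 of 49 genes, against 34.4% of all rows. Hnf4a was highest, and Esrra (94, 84.5 and 87.5 TPM) and the vitamin D receptor Vdr (68.2, 74.6 and 93.5 TPM) were among those below it. The thyroid hormone receptor Thra stood at 52.3, 58 and 59.6 TPM, Nr2f6 at 45, 47.8 and 51.1 TPM and Hnf4g at 54.7, 31.9 and 38.6 TPM. The oxysterol receptor Nr1h2 stood at 31.1, 38.9 and 41.9 TPM, and the shared partners Rxrb and Rxra at 23.7, 27.8 and 32.8 TPM and 20.6, 19.6 and 20.3 TPM.

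Of the receptors named below that bind bile acids, transcripts of the nuclear ones were present and those of the membrane receptor Gpbar1 were not. Nr1h4, the farnesoid X receptor, stood at 25.9, 16.2 and 16.9 TPM, with replicate 1 above both others. The pregnane X receptor Nr1i2 (23.9, 22.7 and 23.1 TPM) and its relative Nr1i3 (20.1, 18.9 and 17.4 TPM) were nearly level. Nr0b2, a target of Nr1h4 that represses transcription, was low at 1.76, 1.41 and 1.22 TPM. Gpbar1, a membrane receptor for bile acids, was listed at 0, 0.0717 and 0 TPM. The estrogen receptor Esr1 was near 0, at 0.0272, 0.0367 and 0.0551 TPM.

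Membrane receptors for nutrients and hormones were present for 3 of 20 and 11 of 49 genes, against 34.4% of all rows. Gpr35 (13.9, 14 and 14.3 TPM), Lpar5 (11, 13.6 and 15.9 TPM) and the long-chain fatty acid receptor Ffar4 (2.98, 4.54 and 4.12 TPM) were the nutrient and metabolite receptors present. Gucy2c, the receptor of guanylin, was the highest of the other list at 75.9, 62.9 and 72.5 TPM, followed by the protease-activated receptor F2rl1 (23.8, 22.6 and 28.4 TPM), with the muscarinic receptor Chrm3 (5.32, 6.09 and 6.1 TPM) further down. The incretin receptor Gipr stood at 0.886, 0.774 and 1.31 TPM and Glp1r at 0.105, 0.132 and 0.045 TPM. Receptors of several hormones that these organoids transcribed were at or near 0. Sctr for secretin, Ghsr for ghrelin, Glp2r for a glucagon-like peptide and Cckbr for cholecystokinin were listed at 0 in each library, and the other cholecystokinin receptor, Cckar, at 0, 0.078 and 0.0698 TPM.

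Growth factor receptors were present for 18 of 23 genes, against 34.4% of all rows. Of the epidermal growth factor receptor family, Erbb3 (27.6, 23.5 and 28.9 TPM) and Erbb2 (22, 21.2 and 24.3 TPM) stood above Egfr (4.37, 4.39 and 5.23 TPM), and Erbb4 was listed at 0 in each library. The ephrin receptor Ephb4 (28.6, 35.6 and 40.0 TPM) and the collagen receptor Ddr1 (27.5, 31.6 and 35.8 TPM) were the highest of the list by mean, and Ephb2 stood at 18.2, 21.9 and 26.9 TPM. Of ligands of the epidermal growth factor family, Areg was highest at 183, 131 and 172 TPM and Btc followed at 24.8, 21.9 and 28.3 TPM, whereas Egf, which organoid media supply, stood at 0.338, 0.349 and 0.622 TPM.

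Wnt signalling genes divided into receptors that were present and ligands that mostly were not. Of 19 Wnt receptor and coreceptor genes 13 were present, against 34.4% of all rows, led after Lgr5 by Ryk (26.5, 28.7 and 33.3 TPM), Lgr4 (24.7, 22 and 27.8 TPM), Fzd5 (23, 19.4 and 22.7 TPM) and Lrp5 (17.9, 22.2 and 23.6 TPM). Of 19 Wnt ligands only Wnt3, made by Paneth cells, was present, at 2.05, 2.37 and 3.83 TPM. Of 4 R-spondins only Rspo4 was present, at 1.98, 2.56 and 3.04 TPM. In the Notch pathway the ligands Jag2 (10.7, 16.3 and 18.1 TPM), Dll1 (8.5, 10.1 and 11.9 TPM), Jag1 (9.16, 6.73 and 8.94 TPM) and Dll4 (4.91, 4.6 and 6.19 TPM) and the receptor Notch1 (5.77, 7.57 and 10.9 TPM) were present. Ihh, the hedgehog ligand of the epithelium, stood at 71.1, 59.8 and 67 TPM, the bone morphogenetic protein receptor Bmpr1a at 27.3, 22.1 and 27.7 TPM and its secreted antagonist Nog at 0, 0.0447 and 0 TPM.

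Of 33 cytokine receptors 21 were present, and of 25 pattern recognition receptors 11, against 34.4% of all rows. Outside the ribosomal and mitochondrial classes, 10706 of 20928 protein-coding rows were present, a larger share than that of the pattern recognition receptors. Ifngr1, a chain of the interferon gamma receptor, was highest at 139, 116 and 126 TPM, followed by Ltbr (57.7, 58.3 and 59.6 TPM) and Ifngr2 (46, 31.1 and 41 TPM). Il10rb, a chain shared by interleukin 10 and 22 receptors, stood at 32.7, 26.2 and 34.6 TPM and Il22ra1 at 4.07, 3.95 and 7.01 TPM. Among pattern recognition receptors the inflammasome genes Nlrp6 (72.7, 62.3 and 64.8 TPM) and Naip6 (32.2, 32.5 and 39.1 TPM) led, and among Toll-like receptors only Tlr3 (6.64, 6.17 and 6.91 TPM) and Tlr5 (2.05, 1.65 and 1.26 TPM) were present, with Tlr4 at 0.0715, 0 and 0.0905 TPM.

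Of 370 rows named as solute carriers (Slc), 203 were present, and of 50 ABC family rows, which include proteins that are not transporters, 27, against 34.4% of all rows. Both shares were close to that of protein-coding rows outside the ribosomal and mitochondrial classes, 10706 of 20928. The highest solute carriers were mitochondrial: the adenine nucleotide carrier Slc25a5 (819, 744 and 873 TPM) and the phosphate carrier Slc25a3 (670.5, 675 and 757 TPM). Slc11a2 was the third and the glucose importer Slc5a1 the fourth at 219, 145 and 202 TPM. They were followed by the citrate carrier Slc25a1 (168, 166 and 183 TPM), Slc25a39 (172, 168 and 168 TPM), the glutamine carrier Slc1a5 (115, 141 and 137 TPM), the chloride importer Slc12a2 (101, 118 and 161 TPM), the heavy chain Slc3a2 (120.3, 115 and 124 TPM) and Slc35a4 (82.4, 80.1 and 104 TPM). The highest ABC row was the drug pump Abcb1a at 86.7, 68.1 and 87 TPM, ahead of Abcd3 of peroxisomes (79.6, 59 and 74.3 TPM) and the sterol exporter Abcg5 (71.6, 52.9 and 76.8 TPM). The next were Abce1, Abcf1, Abcc2, Abcc3, Abcg8, Abcb8 and Abcf2, of which Abce1, Abcf1 and Abcf2 act in translation.

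Bile acid carriers of the organic anion efflux kind and the uptake carrier Slco2b1 were present. The ileal importer Slc10a2, the carrier Slco1a5 and the liver genes named below were not. Abcc2 stood at 54.1, 45 and 54.8 TPM, Abcc3 at 51.5, 47.2 and 39.4 TPM and the uptake carrier Slco2b1 at 15.5, 11.1 and 12 TPM. The subunits of the basolateral bile acid exporter, Slc51a and Slc51b, stood at 4.64, 2.09 and 1.71 TPM and 4.11, 3.13 and 2.06 TPM, both highest in replicate 1. Slc10a2 was under 1 TPM in each library. The carrier Slco1a5 and the liver genes Slc10a1, Slco1a1, Slco1a4 and Slco1b2 were listed at 0 in each. Abcc2 shares its values with the row Gm10768.

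Of sugar carriers 7 of 15 were present, of amino acid carriers 24 of 30 and of lipid genes 20 of 23, against 34.4% of all rows. The sugar carriers lay below the share of protein-coding rows outside the ribosomal and mitochondrial classes, 10706 of 20928. After Slc5a1, the highest sugar carriers were the facilitated carriers Slc2a1 (28.3, 26.5 and 28.7 TPM), Slc2a2 (38.1, 16.8 and 20.8 TPM) and the fructose carrier Slc2a5 (13.4, 8.29 and 5.64 TPM). The neutral amino acid carrier of the brush border, Slc6a19, stood at 5.46, 4.18 and 5.45 TPM, below the cystine carrier pair Slc3a1 (48.4, 36 and 41.5 TPM) and Slc7a9 (25.7, 20.5 and 15.7 TPM). For fat, Mttp, which loads lipoproteins, stood at 213, 127 and 153 TPM, the cholesterol importer Npc1l1 at 74.5, 54.9 and 61.6 TPM and Abcg8, the partner of Abcg5, at 41.4, 32.3 and 44.8 TPM, whereas the fatty acid carrier Cd36 stood at 0.988, 0.704 and 0.181 TPM.

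In metal handling the ferritin subunits Ftl1 (1282, 1264 and 1411 TPM) and Fth1 (1177, 1023 and 1168 TPM) were highest, then Slc11a2 and the transferrin receptor Tfrc (241, 191 and 205 TPM). The iron exporter Slc40a1 stood at 28.5, 16.3 and 14.2 TPM, highest in replicate 1. For calcium, the binding protein S100g stood at 149, 84.5 and 125 TPM, but the entry channel Trpv6 at 0, 0.0192 and 0.0457 TPM. In fluid transport Atp1b1, a subunit of the sodium pump, stood at 809, 652 and 707 TPM. Cftr, the chloride channel, stood at 30.4, 25.6 and 30.1 TPM and the sodium-proton exchanger Slc9a3 at 13, 6.48 and 10.9 TPM. Of the subunits of the epithelial sodium channel, Scnn1a stood at 1.8, 2.22 and 2.0 TPM and Scnn1b and Scnn1g were listed at 0 in each library. Of vitamin carriers, the folate carriers Slc19a1 (35.5, 39 and 34.3 TPM) and Slc46a1 (8.56, 7.2 and 8.06 TPM) were present and the ascorbate carrier Slc23a1 stood at 0.416, 0.0949 and 0.23 TPM.

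**Figure D3:**
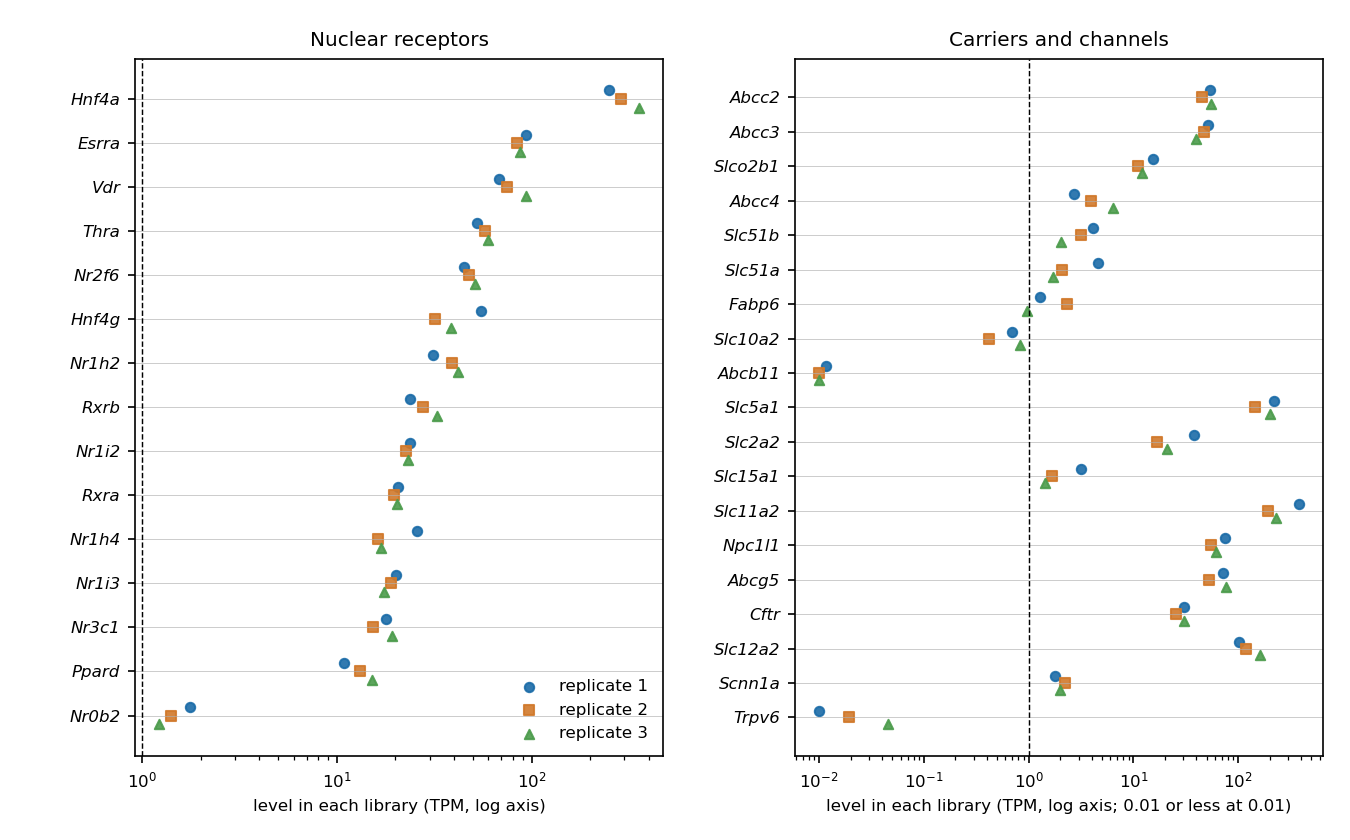
Level in each DMSO library (TPM, log axis, 1 symbol per replicate) of 15 nuclear receptors (left) and of bile acid carriers and other named carriers and channels (right), with 1 TPM dashed and values of 0.01 TPM or less drawn at 0.01. Most genes span less than 2-fold, and Slc10a2, Abcb11 and Trpv6 lie left of the 1 TPM line in each library.

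The 3 libraries were alike in level for most genes. The median coefficient of variation (SD over mean) was 13.9% over 11632 rows of mean 1 TPM or more. It was smaller at higher levels, going from 18.1% at 1 to 10 TPM to 12.7% at 10 to 100 TPM, 10.2% at 100 to 1000 TPM and 6.66% above that. Among 7191 rows of mean 10 TPM or more, replicates 1 and 2 were within 1.5-fold for 94.7% of the rows compared, replicates 2 and 3 for 96.7% and replicates 1 and 3 for 88.1%. Of these 7191 rows, 174 (2.42%) had a library 2-fold or more above another, not counting rows with a 0. Without replicate 1 the count was 41 and without replicate 3 it was 64.

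Most rows were highest in replicate 3. Of the 11632 rows of mean 1 TPM or more, 8242 (70.9%) were highest there, and over rows of mean 10 TPM or more its median ratio to either other library was 1.16. Replicate 3 also had the smallest mitochondrial and ribosomal RNA shares. With the 13 mitochondrial rows left out, their 2 nuclear copies kept and the rest rescaled, 54.0% of rows were highest in replicate 3. The part of ribosomal RNA was not tested. After each library was divided by its median ratio to the others (0.943, 0.954 and 1.11), replicate 1 was highest in 38.6% of rows, replicate 2 in 28.1% and replicate 3 in 33.2%, and replicates 1 and 2 were lowest in 38.3% and 28.4%. The counts of markers by highest and lowest library that follow are on this scale unless said otherwise, and levels of single genes are in TPM as deposited throughout.

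**Figure D4:**
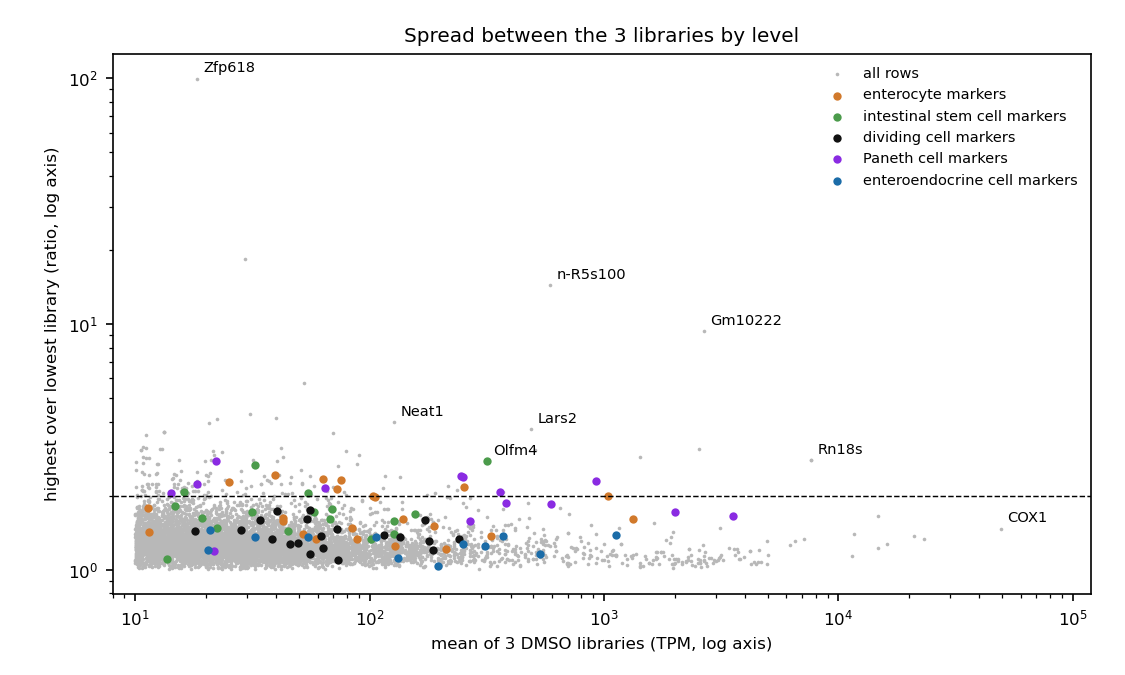
Highest over lowest DMSO library (ratio, log axis) against mean TPM (log axis) for rows of mean 10 TPM or more with no 0, 1 point per row, with the ratio of 2 dashed and markers of 5 cell types in colour. Most rows lie under the line, and Zfp618 (ratio 99.6), the predicted gene Gm9794 (18.3), n-R5s100 (14.4) and Gm10222 (9.37) stand far above the rest.

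Within each of the enterocyte, stem cell, dividing cell and Paneth lists, most markers had the same highest or the same lowest library. On the median-ratio scale, 29 of 30 enterocyte markers of mean 1 TPM or more were highest in replicate 1, against 38.6% of all rows, and in TPM as deposited 27 of 30 were, against 18.7% of all rows. In the other direction, 18 of 21 stem cell and 18 of 20 dividing cell markers were lowest in replicate 1 on the median-ratio scale, against 38.3%. Of 19 Paneth markers 17 were highest in replicate 3, against 33.2%, and 14 lowest in replicate 2, against 28.4%. Many of these Paneth markers are alpha-defensin rows that may share reads, so they are not separate observations. Among all rows of the median-ratio scale with a mean of 100 to 1000 TPM, where many enterocyte markers lie, 60.6% were highest in replicate 1. The summed enterocyte level was 5729, 3485 and 4394 on this scale and 5401, 3324 and 4888 TPM as deposited. The stem cell sum was 983, 1375 and 1483 and 927, 1312 and 1649.9 TPM, and the Paneth sum 7794, 7177 and 10873 and 7346, 6844 and 12095 TPM. Goblet, enteroendocrine and dividing cell sums were closer together, with ratios of 1.19, 1.18 and 1.16 between the highest and the lowest library on the median-ratio scale.

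**Figure D5:**
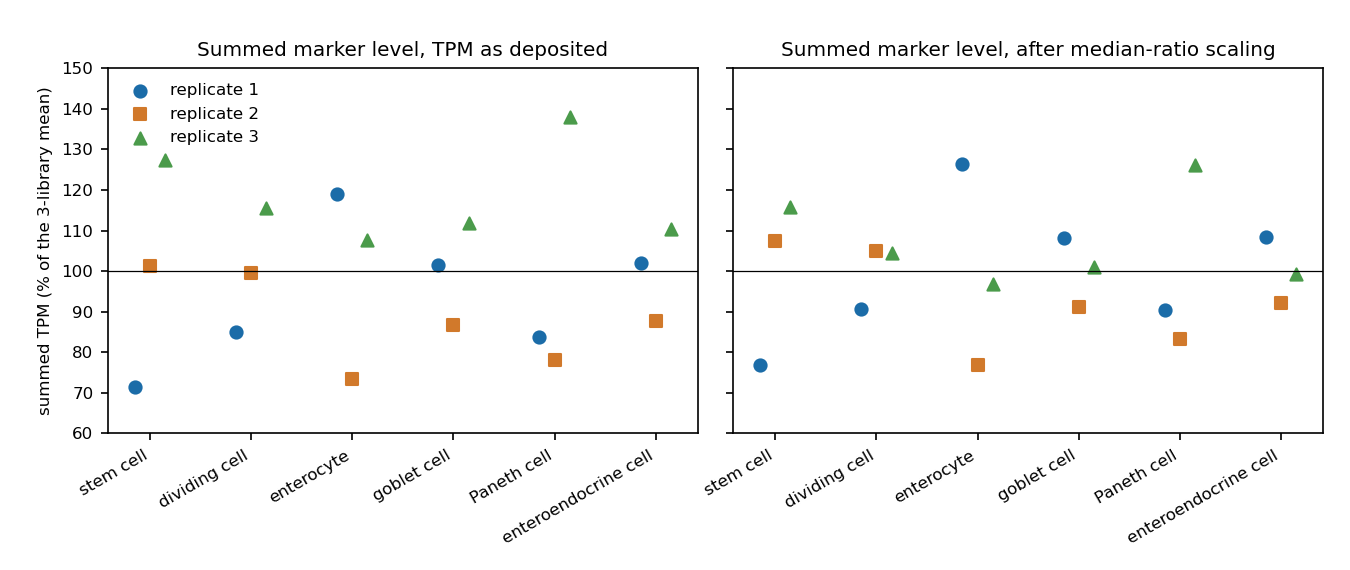
Summed marker level of 6 cell types in each DMSO library (percent of the mean of the 3 libraries), from TPM as deposited (left) and after median-ratio scaling (right). In both panels replicate 1 is highest for enterocyte markers and lowest for stem and dividing cell markers, and replicate 3 is highest for Paneth cell markers.

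Among markers of mean 10 TPM or more, 8 of 14 Paneth, 6 of 23 enterocyte and 4 of 17 stem cell markers had a ratio of 2 or more in TPM as deposited, against 2.42% of all rows. Most of these Paneth markers are defensin rows that may share reads. Cyp3a11, a drug-oxidising enzyme, stood at 89.1, 38.3 and 61.9 TPM, the retinol carrier Rbp2 at 101, 47.6 and 70.3 TPM and the apolipoprotein Apoc3 at 63.9, 26.2 and 27.8 TPM, each 2-fold or more higher in replicate 1 than in replicate 2. In the other direction the stem cell genes Rgmb (35.4, 56.8 and 72.3 TPM) and Msi1 (10.4, 16.3 and 21.5 TPM) were 2-fold or more higher in replicate 3 than in replicate 1. The defensin rows Defa20, Defa21 and Defa26 and the genes Defa17, Defa23, Defa30, Ang4 and Mmp7 also passed 2-fold. So did Marcksl1 (18.7, 31.5 and 38 TPM), Anxa1 (9.6, 15.2 and 20.5 TPM), Clu, Ly6a, Slc9a3, Slc40a1, Slc2a2, Sis, Olfm4, Axin2, Reg1 and Reg3a. None of the goblet, enteroendocrine, dividing cell or nuclear receptor genes of mean 10 TPM or more did.

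Most Paneth markers were highest in replicate 3 and most enterocyte markers in replicate 1. After this was seen, promoters of cell type markers were searched for the TATA box letters TATAAA on the gene's strand (RefSeq, GRCm38.p6). Any link of these letters to the spread between libraries was not tested. The first letter had to lie 40 to 20 bases before the start. The letters were there in 1.99% of 32851 promoters, in 1.14% of those of present protein-coding rows, in 5 of 14 Paneth marker promoters, in 3 of 28 enterocyte and in 0 of 17 dividing cell promoters. Protein-coding rows listed at 0 in each library had them in 5.40% of promoters. The 500 highest nuclear protein-coding rows had them in 3.18%, and the 100 highest in 0 of 89. Stem cell markers had 2 of 21, enteroendocrine markers 2 of 29 and goblet markers 0 of 10, and a gene can have more than 1 promoter in the table. The 5 are Defa20, Defa21, Defa22, Defa23 and Mmp7, of which 4 are defensins of related sequence, and the 3 are Fabp1, Krt20 and Mgam. The 100 bases before the start are shown for 1 gene of each list, the highest with the letters there or, for dividing cells, the highest with a promoter in the table, with the match in capitals: Defa23 (chr8:21054940-21055039, plus strand), Fabp1 (chr6:71199779-71199878, plus strand) and Pcna (chr2:132253181-132253280, minus strand).
Defa23: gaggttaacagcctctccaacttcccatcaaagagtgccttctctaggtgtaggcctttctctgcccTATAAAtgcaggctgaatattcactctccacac
Fabp1: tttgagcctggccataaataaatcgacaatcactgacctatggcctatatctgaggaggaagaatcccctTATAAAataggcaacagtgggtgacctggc
Pcna: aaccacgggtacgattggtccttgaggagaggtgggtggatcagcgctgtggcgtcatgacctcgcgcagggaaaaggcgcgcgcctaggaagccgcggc
A match is a run of letters and not a shown binding site.

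The rows of mean 10 TPM or more that differed most between libraries, leaving out predicted genes and pseudogenes, were led by Zfp618, a zinc finger gene, at 0.542, 54 and 0.786 TPM, which was high in replicate 2 alone. The 5S ribosomal RNA row n-R5s100 stood at 471, 1212 and 84.2 TPM. Defa36 (64.9, 13.7 and 79.1 TPM), Tubb2b (13.4, 21.7 and 57.4 TPM) and Rab26os (16.2, 36.2 and 66.8 TPM) were highest in replicate 3. The nuclear RNA Neat1, a scaffold of paraspeckles, was lowest in replicate 1 at 47.8, 143 and 191 TPM. Lars2, a mitochondrial leucyl-tRNA synthetase, was highest in replicate 1 at 938, 279.8 and 251 TPM, as were Snora73b (32.2, 26.6 and 7.89 TPM), Rnu1a1 (23, 10.6 and 6.31 TPM, the same values as Gm23804 and Gm22634) and Ces1f (23, 8.76 and 7.42 TPM). Rmrp, the RNA of a ribonuclease, was highest in replicate 2 at 67.6, 111 and 30.8 TPM, and Tmem191c, Wdr90, Defa34 and Atg9b, with ratios of 3.54, 3.16, 3.13 and 3.12, were highest in replicate 3.

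At the other end, Commd6 had the smallest ratio of the rows of mean 10 TPM or more, at 41.8, 41.8 and 41.8 TPM. LTO1, Acat1, Clptm1l, Tm2d2, Cfl2, Ndufaf4, Lmf1, Acsl1 and Ybx3 followed, with ratios of up to 1.01. A ratio near 1 in TPM rests on the deposited scale: after median-ratio scaling such rows are lower in replicate 3 than in the others.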

How the data were processed

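RNA-seq tables of 12 libraries were given, and the 3 labelled DMSO were used. Per the labels' protocols, poly(A) RNA was selected and strand-marked libraries were sequenced at both ends. The authors deposited 1 TPM value per gene symbol for 32587 rows, with the unit inferred from the values. Per the submitters' processing notes, Salmon 1.8.0 and GRCm39 were used, in roles not stated. Which annotation served, whether strand was used in counting and how gene values were formed from transcripts is not given in the sources used here. Depth is unknown, so no counting error is given.

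From these values were computed shares of each library's sum, means, SD, coefficients of variation and the ratio of the highest to the lowest library (Python 3.11.15, pandas 2.3.3), checked on simulated data. Median-ratio scaling, leaving out the 13 mitochondrial rows, other TPM limits and leaving out each library were the alternatives. No test was run. Mitochondrial rows carried no mt prefix and were taken by symbol. Biotypes came from RefSeq and transcript sequences from GENCODE M21 (GRCm38). Near-identical transcripts came from blastn 2.17.0 and promoters from RefSeq GRCm38.p6. The GRCm38 references differ from the build of the files, and all references gave names, classes and sequences only. Of the rows, 32139 (98.6%) matched a RefSeq symbol.

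The 42 lists were chosen with earlier results of these data known. In them, 2 of 798 entries were not found. Genes named are the 30 highest rows, up to 6 highest members of a list with defining members under 1 TPM, the 10 highest of the solute carrier, ABC, Hox and nuclear receptor families, the 15 most and 10 least variable rows of mean 10 TPM or more with a gene name, and list members with a ratio of 2 or more. A few genes that this rule covers are not reported here. Other genes named, and the sequences shown, were chosen after their values were seen.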

Additional observations from a re-analysis of the deposited data

How the results depend on the processing

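The number of rows at 1 TPM or more in each library, 11207, stayed within 1.5 times under every alternative tried, from 8743 at 5 TPM to 11884 at 0.5 TPM. Without the mitochondrially encoded rows, the 10 highest rows held 10.7% and the 100 highest 40.2% of the total, in place of 19.7% and 48.4%, and the latter was 43.8% as a share of 1000000 TPM. Wherever mitochondrial rows were left out, the nuclear copies Gm10925 and Gm10222 were kept, with 2.94, 3.45 and 2.22% of the full totals. These results are therefore not free of mitochondrial sequence. The mitochondrial share, 17.2%, was 15.6% as a share of 1000000 TPM and 15.8% to 18.5% with a library left out. The median coefficient of variation, 13.9%, was 19.0% over all rows above 0, 12.3% over rows of mean 10 TPM or more, 10.5% after median-ratio scaling, 11.8% with the mitochondrial rows left out, and 9.26% to 14.3% with a library left out. The count of rows with a ratio of 2 or more, 174, was 810 over rows of mean 1 TPM or more with 0.1 TPM added, and 41 to 139 with a library left out, being 41 without replicate 1, 139 without replicate 2 and 64 without replicate 3. Fewer libraries give a smaller range by construction, and the cause of the other shifts was not tested. The count of markers present stayed within 1.5 times for 40 of 42 lists at 0.5 TPM and 27 of 42 at 5 TPM. Leaving out the mitochondrial rows raises all other values by construction and moved the summed level of 30 of 42 lists by more than 1 SD, whereas median-ratio scaling moved none of the 42 sums by that much. No paired analysis was possible because only 1 group was used. TPM without depth sets no limit on what a 0 or a value under 1 TPM means.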

Other observations

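The genes below were chosen after their values were seen, and no explanation for them was tested. Chd9, a chromatin remodeller, was among the 10 highest protein-coding rows outside the ribosomal and mitochondrial classes, at 2635, 2542 and 2378 TPM. The next of its family, Chd4, stood at 59.6, 67.3 and 79.4 TPM, so 1 member of the family stood far above the rest. Lars2 at 938, 279.8 and 251 TPM stood in the same way above the other mitochondrial aminoacyl-tRNA synthetases, of which Iars2 was next at 35, 38.3 and 41.3 TPM. Lars2 was highest in replicate 1, whereas Chd9 was level, with a ratio of 1.11 between the highest and lowest library.

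Long non-coding RNA rows passed a ratio of 2 between libraries in a larger share than protein-coding rows. Of 60 long non-coding RNA rows of mean 10 TPM or more, 16 (26.7%) had a ratio of 2 or more, against 139 of 6950 (2.00%) for protein-coding rows outside the ribosomal and mitochondrial classes. Some rows of the 60 carry exactly the values of a coding row, such as LOC115489947 with Rpl11. Among the 16, E030003E18Rik has the values of Aldh1a1 and 1500011B03Rik those of 2610524H06Rik, so these values count in both classes. Replicate 1 was lowest for 15 of the 16 and replicate 3 highest for 14, against 104 and 115 of all 174 rows with such a ratio, in TPM as deposited. Among the highest of the class, Gas5, a host of small nucleolar RNAs, was level at 1432, 1453 and 1410.00 TPM, but Snhg3 (40.3, 73.8 and 106 TPM) and the nuclear RNA Firre (30.4, 63.4 and 72.8 TPM) were lowest in replicate 1. The small structural RNA rows whose names start with Rn7s summed to 3948, 2816 and 1314 TPM, running in the opposite order.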
